A study of Mus musculus with 4 samples.

Results

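The genes described here are 10 members of the tumor necrosis factor (TNF) receptor superfamily and its ligands, among 47729 genes counted in regulatory T (Treg) cells. They were chosen by name, with earlier results of these data known. Counts of members beside shares of all genes are therefore a description and not a test. The 8 receptor genes are *Tnfrsf4* (OX40), *Tnfrsf18* (GITR), *Tnfrsf9* (4-1BB), *Tnfrsf1a* (TNFR1), *Tnfrsf1b* (TNFR2), *Tnfrsf25* (DR3), *Cd27* and *Fas*, and the 2 ligand genes are *Cd40lg* (CD40L) and *Ltb* (lymphotoxin beta). Each matched 1 Ensembl identifier, and all 10 passed the filter on low counts. RNA came from 4 libraries of CD25+YFP+ cells sorted from female C57BL/6 mice aged 6 to 8 weeks, 2 from *Tfrc* fl/fl *Foxp3* YFP-Cre/+ animals (labelled TfR1-deficient) and 2 from *Tfrc* +/+ *Foxp3* YFP-Cre/+ animals (WT). Both genotypes carry the YFP-Cre allele at *Foxp3*, so Cre is made in Treg cells of either group, and the groups differ in the floxed alleles of *Tfrc*, the gene of transferrin receptor 1 (TfR1), the main route of iron uptake. *Foxp3* is X-linked, so a heterozygous female also has Treg cells without YFP, which the sort left out. The labels give the spleen as the tissue, while a legend of the study gives spleens together with lymph nodes for these cells. The number of animals behind a library is not given in the sources used here, and p-values measure the spread between these libraries only.

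Receptors of this superfamily are trimeric surface proteins that bind trimeric ligands on neighbouring cells. One branch (OX40, GITR, 4-1BB, TNFR2, CD27) recruits TRAF adaptors and activates NF-κB, which acts as costimulation beside the T-cell receptor, while the other (Fas, TNFR1, DR3) carries a death domain in its tail. Treg cells are known for constitutive GITR, OX40 and TNFR2, and signals through these receptors support their expansion and survival.

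The libraries held between 10841939 and 17278448 counts. Levels are given as CPM, read counts relative to library size after TMM scaling. *Tfrc* itself had 50.8 and 54.1 CPM in WT against 56.1 and 48.3 CPM under the TfR1-deficient label. Its gene-level count therefore gave no check of the genotype, and every direction below rests on the labels, with TfR1-deficient used as the name of a label. Treg cell markers (*Foxp3*, *Il2ra*, *Ikzf2*, *Ctla4*, *Cd4* and 3 genes of the T-cell receptor complex) were at 6001 and 6170 CPM in sum in WT and at 5403 and 4656 CPM in TfR1-deficient libraries, and none of the 8 was at 0 in any library. In 5 of the 8 (*Foxp3*, *Il2ra*, *Ctla4*, *Cd4* and *Cd3e*) both TfR1-deficient libraries lay below both WT libraries, as in 18.9% of all tested genes. *Ctla4*, the inhibitory receptor of Treg cells, was at 407 and 427 against 241 and 235 CPM (log2 fold change -0.81, adjusted p = 0.911 in edgeR's quasi-likelihood test and 7.3e-04 with DESeq2). The part of this shift in the values of the members was not tested. A list of 12 macrophage markers was uneven across the libraries. Its summed level was 637 CPM for WT replicate 1 and 1983 CPM for TfR1-deficient replicate 2, but 80.6 CPM for WT replicate 2 and 54.2 CPM for TfR1-deficient replicate 1. All 12 of those markers and all 8 proliferation markers were higher in the first pair of libraries than in the second. B cell markers stayed between 25.5 and 42.7 CPM in sum. The 4 erythroid markers with an identifier summed to 16.9 and 113 CPM for WT replicates 1 and 2, and to 42.9 and 277 CPM for TfR1-deficient replicates 1 and 2. The comparison of genotypes is therefore also given within 2 pairs of libraries, the one with low macrophage counts (TfR1-deficient replicate 1 over WT replicate 2) and the one with high counts (TfR1-deficient replicate 2 over WT replicate 1). Neither pair is matched for other cells. In the pair with high counts the TfR1-deficient library had more macrophage and more erythroid RNA than the WT library. In the pair with low counts the TfR1-deficient library had less of both (54.2 against 80.6 CPM and 42.9 against 113 CPM).

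Divided by exon length, *Tnfrsf4* and *Ltb* were the most abundant of the 10 transcripts and *Tnfrsf1a* the least. *Tnfrsf4* ranged from 453 to 793 CPM per kb of exon and *Ltb* from 396 to 692, and these 2 ranges overlapped. *Cd27*, whose product binds CD70, followed at 226 to 263 CPM per kb, and *Tnfrsf18* at 157 to 202 CPM per kb, each apart from its neighbours in all 4 libraries. *Tnfrsf25* (91.0 to 119 CPM per kb), *Fas* (69.9 to 80.0) and *Tnfrsf9* (55.7 to 98.0) came next, and the range of *Tnfrsf9* overlapped both of the others. *Tnfrsf1b* (21.2 to 49.5 CPM per kb) and *Cd40lg* (10.6 to 29.4) overlapped, while *Tnfrsf1a* was below every other member in every library (4.15 to 8.03). TNFR2 transcripts thus outnumbered those of TNFR1 per length, at ratios of 6.16 and 5.53 in WT and 5.11 and 3.58 in TfR1-deficient libraries. *Tnfrsf4* made up between 39.3% and 51.8% of the summed per-length level of the 8 receptors.

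**Figure D1:**
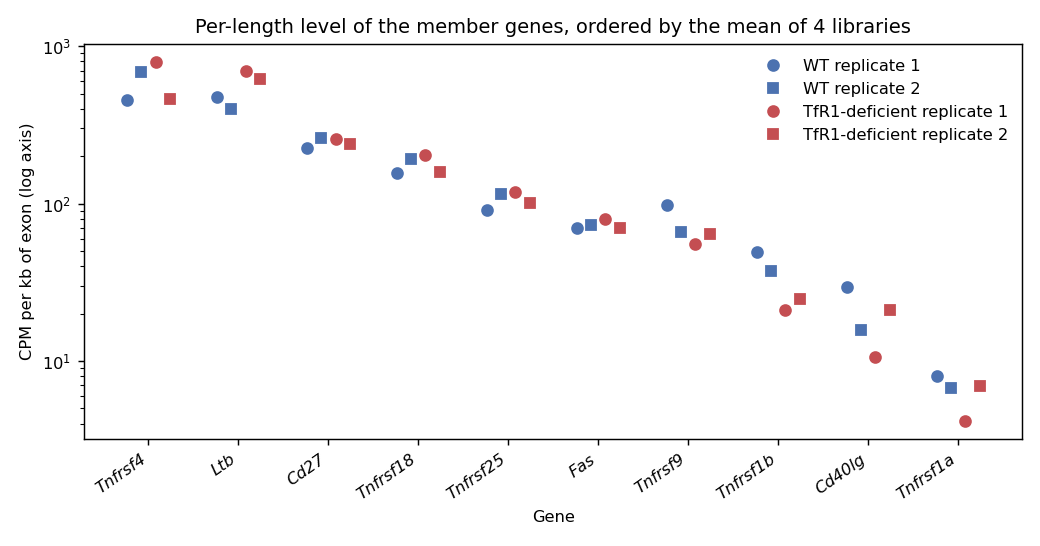
Level of each member gene in CPM per kb of exon (log axis), ordered by the mean of the 4 libraries, with 1 point per library (blue WT, red TfR1-deficient, circles replicate 1, squares replicate 2). *Tnfrsf4* and *Ltb* share the top of the order, from 396 to 793 CPM per kb, and *Tnfrsf1a* lies below all others, from 4.15 to 8.03.

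Of the 8 receptor genes, 5 lie on chromosome 4 in the mouse genome (GRCm38.p6, the RefSeq annotation of the mm10 build). *Tnfrsf1b* (chromosome 4, 145212368 to 145246870, minus strand), *Tnfrsf9* (150920155 to 150946104), *Tnfrsf25* (152115528 to 152120119), *Tnfrsf4* (156013595 to 156016613) and *Tnfrsf18* (156026322 to 156028894) follow each other, and 9.7 kb separate *Tnfrsf4* from *Tnfrsf18*. *Cd27* (chromosome 6, 125232620 to 125237136, minus strand) and *Tnfrsf1a* (125349723 to 125362483) are 113 kb apart. *Fas* lies on chromosome 19 (34290647 to 34327775), *Ltb* on chromosome 17 (35194507 to 35196305) and *Cd40lg* on chromosome X (57212143 to 57224042). Only *Tnfrsf18* shares exon sequence with another gene of the older annotation used for lengths, 414 bases with the opposite-strand *Gm16008*, which was counted at 36 to 89 reads against 2923 to 5351 for *Tnfrsf18*. Whether reads were counted by strand is not given in the sources used here.

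Promoter windows (250 bases before to 50 after a gene start, from RefSeq on GRCm38.p6) were found for 9 of the members, 11 windows in all. They were searched on both strands for the letters of STAT, NF-κB, AP-1, forkhead and RUNX factors. The motifs were chosen after seeing the data and the members with earlier results known, so the shares below are a description and not a test. The STAT letters TTCNNNGAA stood in 7 of the 11 windows, in 7 genes, and in 8.3% of all 32851 windows. The NF-κB letters GGG and TTTCC, with any 2 bases between them, stood in 3 of the 11 (*Tnfrsf9*, *Tnfrsf25* and *Ltb*) and in 1.63% of all windows. The AP-1 letters TGANTCA stood in 2 (*Tnfrsf9* and *Fas*; 7.81% of all windows), the forkhead letters TGTTTAC in 1 (*Ltb*; 3.65%) and the RUNX letters TGTGGT in 2 (*Tnfrsf9* and *Tnfrsf25*; 16.8%). Another 5 spellings of the NF-κB site, which overlap with these letters and each other, matched at most 1 window each, that of *Tnfrsf9* or of *Ltb*. The STAT, NF-κB and AP-1 matches below belong to the 3 genes whose libraries did not overlap between genotypes (*Tnfrsf1b*, *Tnfrsf9*, *Ltb*). The STAT matches of *Tnfrsf18* and *Fas*, whose libraries did overlap, are given for comparison, and the AP-1 match of *Fas* is not printed. Capitals mark the match, and each is written 5′ to 3′ on the strand of the gene.
Tnfrsf1b, STAT letters, chr4:145247033-145247061, minus strand: agcgcattcaTTCCCGGAAgagatgctgg
Tnfrsf9, STAT letters, chr4:150927853-150927881, plus strand: caacagctgaTTCCAAGAAacccttcaga
Tnfrsf9, NF-κB letters, chr4:150927946-150927975, plus strand: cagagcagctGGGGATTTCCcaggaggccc
Tnfrsf9, AP-1 letters, chr4:150927974-150928000, plus strand: cctgctcagtTGAGTCAcaggtcctgt
Ltb, STAT letters, chr17:35194325-35194353, plus strand: ccttccccagTTCAGAGAAcccaggcatc
Ltb, NF-κB letters (reverse complement), chr17:35194410-35194439, plus strand: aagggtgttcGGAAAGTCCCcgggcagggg
Tnfrsf18, STAT letters, chr4:156026213-156026241, plus strand: tgctctacacTTCACAGAAggcctttaca
Fas, STAT letters, chr19:34290556-34290584, plus strand: tcaaagcgatTTCTGGGAAgacctgaata
The 3 *Tnfrsf9* matches lie in the window of its downstream start, the NF-κB letters 43 to 34 bases and the AP-1 letters 15 to 9 bases before it. The STAT letters stood both in members whose genotypes overlapped (*Tnfrsf1a*, *Tnfrsf18*, *Tnfrsf25*, *Fas*) and in the 3 whose did not.

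The question put to these 10 genes was whether their transcripts differ between TfR1-deficient and WT Treg cells. In edgeR's quasi-likelihood test across 12536 genes with Benjamini-Hochberg adjustment, none of the 10 passed an adjusted p-value of 0.05, and neither did any other gene tested (0% called). At an unadjusted p-value under 0.05, 2 of the 10 passed, *Tnfrsf1b* and *Ltb*, where 5.22% of all tested genes did. With a log2 fold change of at least 0.5 required as well, *Tnfrsf1b* was the 1 member counted as lower (2.48% of all tested genes) and *Ltb* the 1 counted as higher (1.6%), together 2 of 10 beside 4.08% in either direction. DESeq2's Wald test also called 0 of the 10 at an adjusted p-value under 0.05, where it called 0.0479% of all tested genes as higher and 0.263% as lower. At its unadjusted p-value under 0.05 with the same minimum change, it counted *Ltb* as higher and *Tnfrsf1b* as lower. Of all 12536 tested genes it then counted 206 as higher and 307 as lower. The libraries of the genotypes did not overlap in 2 lower members, *Tnfrsf1b* and *Tnfrsf9* (18.9% of all tested genes), and in 1 higher member, *Ltb* (16%). Together these 3 of 10 are near the 34.9% of all tested genes that did not overlap in either direction. The median log2 fold change of the 10 members was 0.03, beside 0.01 over all tested genes. In bulk RNA, fewer cells that express a gene and less RNA per cell cannot be told apart.

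*Tnfrsf1b* encodes TNFR2, the TNF receptor without a death domain that is prominent on effector Treg cells. Its level was 189 and 142 CPM in WT, and 80.9 and 94.8 CPM under the TfR1-deficient label. Both TfR1-deficient libraries were below both WT libraries, and the spread within a genotype was smaller than the gap between their means, 166 ± 32.9 and 87.8 ± 9.83 CPM (SD, n = 2 each). The level was 1.89-fold lower, a log2 fold change of -0.92 (standard error 0.20, 95% interval -1.41 to -0.42, unadjusted p = 0.0050, adjusted p = 0.911 in edgeR's quasi-likelihood test), and it ranked 52nd of the 12536 genes by p-value. The difference had a similar size in both pairs of libraries, -0.82 for TfR1-deficient replicate 1 over WT replicate 2 and -0.99 for TfR1-deficient replicate 2 over WT replicate 1, the pairs with low and with high macrophage counts. Within each genotype *Tnfrsf1b* was higher in the library with high macrophage counts, and the part of macrophage RNA in its level was not tested. The adjusted p-value depended on the test and filter, at 0.056 with DESeq2 and 7.3e-04 in edgeR without a filter on low counts. Over the alternatives set out in the processing section the adjusted p-value ran from 7.3e-04 to above 0.99. The fold change itself stayed between -1.11 and -0.69 when each library was left out in turn.

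*Tnfrsf1a* encodes TNFR1, the death-domain receptor for the same ligand. With 187 to 255 reads per library it was the least counted receptor. It stood at 20.9 and 17.5 CPM in WT and at 10.8 and 18.03 CPM in TfR1-deficient libraries, so the genotypes overlapped. Its log2 fold change of -0.42 (95% interval -1.25 to 0.42) did not pass edgeR's test at an unadjusted p = 0.26. It lay between -0.84 and -0.09 as single libraries were left out. Macrophages also express this gene, and its higher levels stood in the 2 libraries with high macrophage counts, whose part in it was not tested. The ligand genes of both receptors were counted as well. *Tnf* was at 4.17 and 4.69 CPM in WT and 3.23 and 2.63 CPM in TfR1-deficient libraries (log2 fold change -0.59, unadjusted p = 0.17 in edgeR's test), and *Lta*, which encodes lymphotoxin alpha, was at 94.5 and 107 against 77.3 and 93.5 CPM.

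*Tnfrsf9* encodes 4-1BB, a costimulatory receptor that appears on T cells after activation. It was at 267 and 179 CPM in WT and at 152 and 174 CPM in TfR1-deficient libraries. The TfR1-deficient libraries lay below both WT libraries, but WT replicate 2 was only a little above TfR1-deficient replicate 2. The log2 fold change was -0.45 (standard error 0.23, 95% interval -1.04 to 0.13, unadjusted p = 0.10 and adjusted p = 0.911 in edgeR's test). Its size depended on WT replicate 1, without which it was -0.12, while without WT replicate 2 it was -0.71. Its ligand gene *Tnfsf9* (4-1BBL) was counted at 3.85 and 3.56 CPM in WT and 1.90 and 2.19 CPM in TfR1-deficient libraries, without overlap (log2 fold change -0.86, standard error 0.40, unadjusted p = 0.083 in edgeR's test).

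**Figure D2:**
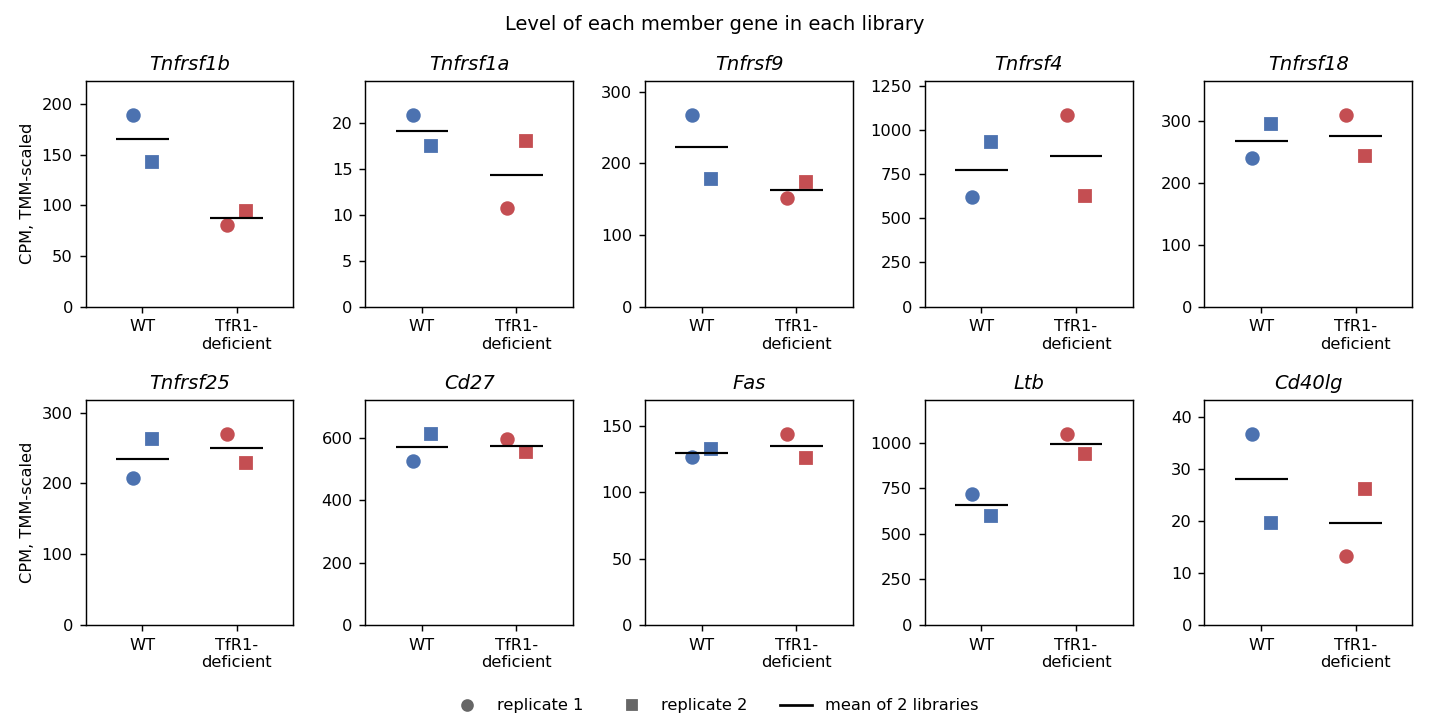
Level of each member gene in CPM (TMM-scaled, vertical axes from 0) in the 4 libraries, with circles for replicate 1, squares for replicate 2 and a line at the mean of each genotype. *Tnfrsf1b* (189 and 142 against 80.9 and 94.8 CPM) and *Ltb* (716 and 600.1 against 1048 and 939 CPM) separate the genotypes, *Tnfrsf9* separates them narrowly, and the other 7 genes overlap.

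*Tnfrsf4* and *Tnfrsf18*, the adjacent genes of OX40 and GITR, overlapped between the genotypes. *Tnfrsf4* was at 618 and 930.0 CPM in WT and at 1083 and 626 CPM in TfR1-deficient libraries. Replicates of one genotype thus differed more than the genotypes did, with means of 774 ± 221 and 855 ± 323 CPM (SD, n = 2 each). The log2 fold change was 0.14, and its 95% interval from -0.70 to 0.99 leaves room for a difference in either direction. The fold change turned to -0.31 without TfR1-deficient replicate 1 and to -0.12 without WT replicate 1. *Tnfrsf18* was at 239 and 294 CPM in WT and at 308 and 243 CPM in TfR1-deficient libraries. It showed the same order of libraries over a narrower range, with a log2 fold change of 0.05 (95% interval -0.44 to 0.53). The per-length ratio of *Tnfrsf4* to *Tnfrsf18* was 2.88 and 3.53 for WT replicates 1 and 2, and 3.92 and 2.88 for TfR1-deficient replicates 1 and 2. Within the pairs with low and with high macrophage counts, *Tnfrsf4* differed between genotypes by 0.22 and 0.02 and *Tnfrsf18* by 0.07 and 0.02 on the log2 scale. The ligand genes were scarce, with *Tnfsf4* (OX40L) at 1.31 to 2.48 CPM and *Tnfsf18* (GITRL) at 0 reads in 3 libraries and 1 read in TfR1-deficient replicate 2. A count of 0 allows a level of up to between 0.173 and 0.281 CPM in these libraries (3 reads, counting error only).

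*Cd27*, *Tnfrsf25* and *Fas* overlapped between the genotypes too. *Cd27*, a costimulatory receptor kept on resting T cells, was at 526 and 612 CPM in WT and at 594 and 553 CPM in TfR1-deficient libraries, and both TfR1-deficient values lay between the WT ones. Its log2 fold change was 0.01, with a 95% interval of -0.36 to 0.39. *Fas*, the death receptor, was at 127 and 132 CPM in WT and at 144 and 126 CPM in TfR1-deficient libraries, so the highest library was 1.14-fold above the lowest (log2 fold change 0.06, 95% interval -0.31 to 0.42). *Tnfrsf25*, whose product DR3 binds TL1A and expands Treg cells when engaged, was at 207 and 262 CPM in WT and at 270 and 229 CPM in TfR1-deficient libraries (log2 fold change 0.09, 95% interval -0.37 to 0.55). The sign of each of these differences turned with 1 library left out, and so did that of *Tnfrsf18*. For these 3 genes the intervals leave room for differences of up to about 0.55 on the log2 scale. Their ligand genes were low in these cells. *Cd70* had 8, 1, 2 and 2 reads and *Tnfsf15* (TL1A) 1, 6, 0 and 1 reads in the order WT replicates 1 and 2, TfR1-deficient replicates 1 and 2, both below the count filter. *Fasl* was at 22.8 and 22.3 CPM in WT and 15.3 and 23.9 CPM in TfR1-deficient libraries.

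*Ltb* encodes lymphotoxin beta, a membrane ligand that lymphocytes use to signal to stromal and myeloid cells and that organises lymphoid tissue. Its level was 716 and 600.1 CPM in WT, and 1048 and 939 CPM under the TfR1-deficient label. Both TfR1-deficient libraries were above both WT libraries, with means of 658 ± 82.1 and 993 ± 77.7 CPM (SD, n = 2 each). The level was 1.51-fold higher, a log2 fold change of 0.59 (standard error 0.16, 95% interval 0.19 to 0.997, unadjusted p = 0.013, adjusted p = 0.911 in edgeR's quasi-likelihood test; adjusted p = 0.165 with DESeq2). The sign was the same in both pairs of libraries, 0.80 for TfR1-deficient replicate 1 over WT replicate 2 and 0.39 for TfR1-deficient replicate 2 over WT replicate 1. With each library left out in turn it was between 0.47 and 0.74. *Ltb* no longer passed the unadjusted p-value with a change of at least 0.5 when TfR1-deficient replicate 1 or WT replicate 2 was left out, or with the replicate number as a block. A crossed block, made of the pairs with low and with high macrophage counts, called it at an adjusted p = 0.011 in edgeR's test. That block was chosen after seeing the data, so its call is a description and not a test. The gene of its receptor, *Ltbr*, was read only in the libraries with high macrophage counts, with 3 reads for WT replicate 1 and 19 for TfR1-deficient replicate 2 against 0 for each of the others, and the part of macrophage RNA in *Ltbr* was not tested.

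*Cd40lg* encodes the ligand by which activated helper T cells engage CD40 on B cells and dendritic cells. It was at 36.8 and 19.6 CPM in WT and at 13.2 and 26.2 CPM in TfR1-deficient libraries, and the genotypes overlapped. It had the widest range of the 10 genes, with the highest library 2.78-fold above the lowest. The log2 fold change was -0.52 (standard error 0.46, 95% interval -1.68 to 0.65, adjusted p = 0.950 in edgeR's test), reaching -1.10 once TfR1-deficient replicate 2 was left out and 0.02 once WT replicate 1 was. Within the pairs of libraries it was -0.56 and -0.49. *Cd40* itself had 2 reads in each library.

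**Figure D3:**
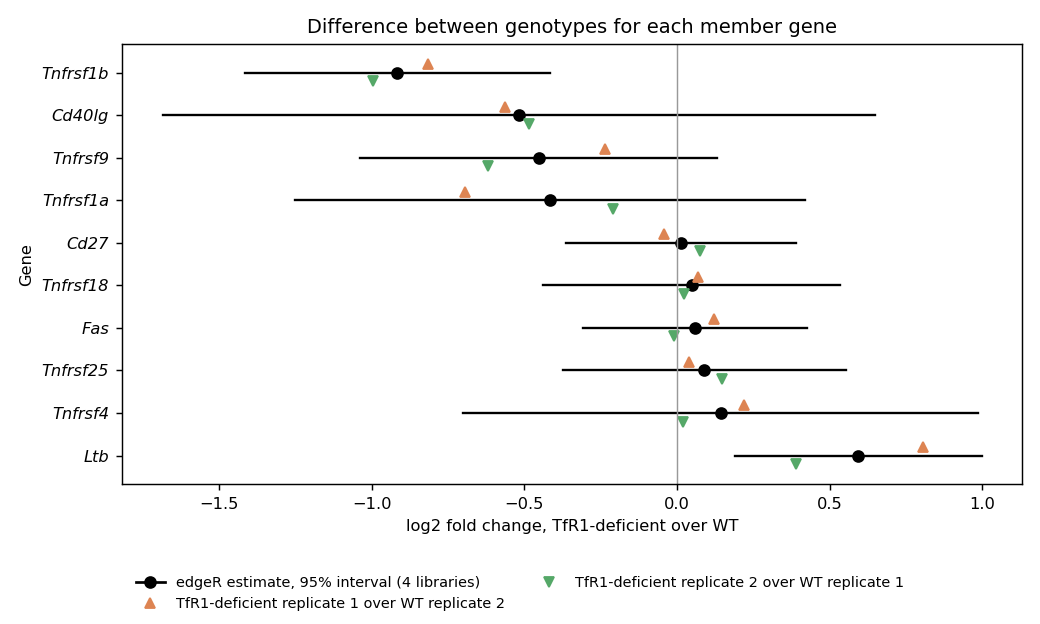
Log2 fold change of each member gene, TfR1-deficient over WT, with the edgeR estimate and its 95% interval over 4 libraries (black) and the ratios of the pair of libraries with low macrophage counts (orange) and of the pair with high counts (green). The intervals of *Tnfrsf1b* (-1.41 to -0.42) and *Ltb* (0.19 to 0.997) lie to either side of 0, and those of the other 8 genes include it.

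Across libraries, 5 of the 10 members (*Tnfrsf4*, *Tnfrsf18*, *Tnfrsf25*, *Cd27* and *Fas*) were lower in WT replicate 1 and TfR1-deficient replicate 2, the libraries with high macrophage and proliferation counts, than in the other 2. The same held for 25.5% of all tested genes. *Tnfrsf1a* and *Cd40lg* were higher in those 2 libraries, as were 22.9% of all tested genes. *Tnfrsf1b*, *Tnfrsf9* and *Ltb* followed neither order. They are the 3 genes whose libraries separated by genotype, and a gene that separates by one cannot separate by the other. Within each genotype, *Tnfrsf1b* and *Tnfrsf9* were still higher in the library with high macrophage counts, and *Ltb* was so in WT only. The share of macrophage or dividing cells in these values was not tested. Among the members the most alike patterns were those of *Tnfrsf18* and *Tnfrsf25*, at a distance of 0.10 over the 4 libraries (Euclidean, log2 CPM centred on each gene), followed by *Cd27* and *Fas* at 0.13. *Tnfrsf4* and its neighbour *Tnfrsf18* were 0.38 apart, and *Tnfrsf4* and *Cd40lg* were the least alike at 1.76. Of all 11603 other tested genes with a symbol, those nearest to *Tnfrsf4* were *Trav13-2* (0.03), *Serac1* (0.05) and *Ppm1m* (0.06), those nearest to *Tnfrsf18* *Zfp27*, *Chd1* and *9030624J02Rik* (0.02 each), and those nearest to *Tnfrsf9* *Stim1* (0.05), *Mettl15* (0.06) and *Neu3* (0.06). With 4 libraries many genes share a pattern this closely.

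**Figure D4:**
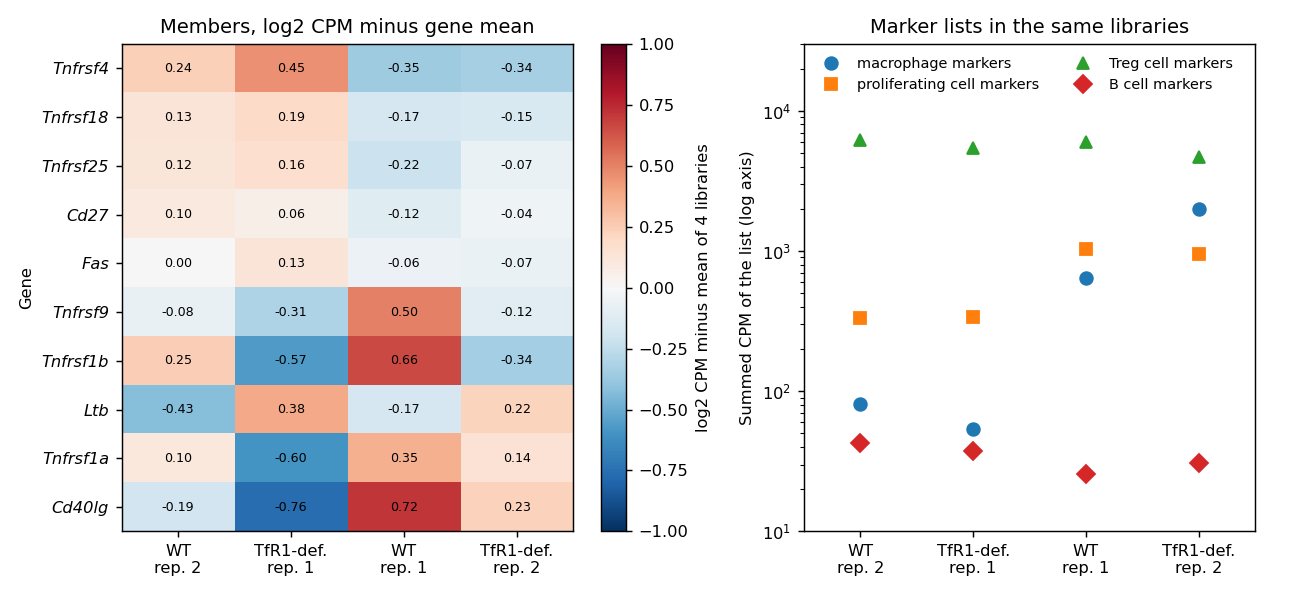
Left, log2 CPM of each member gene minus its mean over the 4 libraries, with the libraries of low macrophage counts (WT replicate 2, TfR1-deficient replicate 1) placed before those of high counts. Right, summed CPM of marker lists in the same libraries (log axis), where macrophage markers go from 54.2 and 80.6 to 637 and 1983 CPM. *Tnfrsf4*, *Tnfrsf18*, *Tnfrsf25*, *Cd27* and *Fas* are lower in the right-hand pair, and *Tnfrsf1a* and *Cd40lg* higher.

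Beyond the members, 20 other receptor genes of the superfamily were listed, of which 11 passed the count filter. None passed an adjusted p-value of 0.05 in edgeR's test or in DESeq2's, and 1 passed an unadjusted one with a log2 fold change of at least 0.5 (0 higher, 1 lower; 1.6% and 2.48% of all tested genes). This was *Tnfrsf8*, the gene of CD30, a receptor of activated T cells. It was at 22.4 and 20.6 CPM in WT and at 13.4 and 13.4 CPM in TfR1-deficient libraries, a log2 fold change of -0.68 (standard error 0.22, unadjusted p = 0.026 and adjusted p = 0.911 in edgeR's test). *Tnfrsf10b* (a receptor for TRAIL, 6.47 and 7.97 against 4.15 and 4.45 CPM) and *Tnfrsf12a* (the TWEAK receptor, 3.27 and 3.09 against 2.07 and 1.53 CPM) were also lower without overlap and passed no threshold. *Tnfrsf23* was higher without overlap, at 0.819 and 0.844 against 1.21 and 1.24 CPM, on 9 to 21 reads per library (unadjusted p = 0.38 in edgeR's test). Of the 11 tested genes, 4 were lower and 1 higher without overlap, beside 18.9% and 16% of all tested genes. *Tnfrsf11b*, *Tnfrsf17*, *Eda2r* and *Edar* had 0 reads in all 4 libraries. The list's median was -0.11, and 6 of the 11 were below 0, beside 0.01 and 48.9% over all tested genes.

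Of 16 other ligand genes, 15 matched an identifier and 10 were tested, with 0 passing an adjusted p-value in either tool. *Tnfsf8*, which encodes CD30L, the ligand of CD30, was the 1 lower at the unadjusted threshold (2.48% of all tested genes), and 0 were higher (1.6%). It was at 128 and 101 CPM in WT and at 71.1 and 82.8 CPM in TfR1-deficient libraries, a log2 fold change of -0.58 (standard error 0.18, unadjusted p = 0.023 and adjusted p = 0.911 in edgeR's test). The genes of CD30 and of its ligand were both lower without overlap, as were 18.9% of all tested genes. Each was named for having the lowest p-value of its list, so the 2 together are a description only. Of the 10 tested ligands, 4 were lower and 0 higher without overlap, beside 18.9% and 16% of all tested genes. The median of the 10 ligands was -0.44, with 8 of 10 (80.0%) below 0, beside 48.9% of all tested genes. It was -0.49 in the pair of libraries with low macrophage counts and -0.39 in the pair with high counts. Most of these ligands were counted at a few CPM, and *Lta*, *Tnfsf8*, *Tnfsf10* and *Fasl* were the only ones above 10 CPM in every library.

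The adaptors that carry these signals were all counted. Of 17 TRAF and death-domain adaptor genes, 1 was higher and 0 were lower at the unadjusted threshold with a log2 fold change of at least 0.5 (1.6% and 2.48% of all tested genes), 3 passed the unadjusted p-value alone (5.22%), and 0 passed an adjusted one in edgeR or DESeq2. *Traf4* was at 12.2 and 11.1 CPM in WT and at 22.5 and 20.1 CPM in TfR1-deficient libraries (log2 fold change 0.88, standard error 0.23, unadjusted p = 0.013 in edgeR's test). *Ripk1*, the kinase recruited by TNFR1, was at 15.8 and 11.1 against 19.2 and 23.3 CPM, and *Tradd*, the adaptor between them, at 69.7 and 51.3 against 76.2 and 80.8 CPM, both higher without overlap. *Traf1*, an adaptor that binds TNFR2 and 4-1BB, was at 353 and 380.0 CPM in WT and 285 and 291 CPM in TfR1-deficient libraries, a log2 fold change of -0.35 (standard error 0.13, unadjusted p = 0.046 in edgeR's test). *Map3k14*, the kinase NIK of the noncanonical NF-κB pathway, was at 126 and 121 against 99.4 and 95.6 CPM (log2 fold change -0.35), and *Traf5* at 115 and 124 against 98.5 and 97.0 CPM (-0.29). *Traf2*, the central adaptor, overlapped at 194 and 276 against 259 and 220 CPM. The median of the 17 was -0.06, and the genotypes did not overlap in 10, beside 34.9% of all tested genes.

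Of 18 genes of NF-κB subunits, kinases and inhibitors, 2 were lower and 0 higher at the unadjusted threshold with a log2 fold change of at least 0.5 (2.48% and 1.6% of all tested genes), 3 passed the unadjusted p-value alone (5.22%), and 0 passed an adjusted one in edgeR or DESeq2. The 2 were both brakes on the pathway, but other inhibitors in the list had estimates in either direction, such as *Otulin* (log2 fold change 0.50) and *Nfkbia* (-0.47). *Tnfaip3*, which encodes the ubiquitin-editing enzyme A20 and is itself induced by NF-κB, was at 637 and 816 CPM in WT and at 544 and 362 CPM in TfR1-deficient libraries (log2 fold change -0.68, standard error 0.25, unadjusted p = 0.040 in edgeR's test). *Cyld*, a deubiquitinase, was at 251 and 269 against 203 and 149 CPM (log2 fold change -0.56, standard error 0.19, unadjusted p = 0.031 in edgeR's test). *Rel*, the c-Rel subunit needed for Treg cell development, was at 188 and 179 CPM in WT and at 141 and 135 CPM in TfR1-deficient libraries (log2 fold change -0.41, standard error 0.13, unadjusted p = 0.025 in edgeR's test). *Bcl3* was higher without overlap, at 5.16 and 5.81 against 7.38 and 9.78 CPM. The median of the 18 was -0.12, with 10 below 0 and 8 above, where 48.9% of all tested genes were below 0. The genotypes did not overlap in 9 of the 18, beside 34.9% of all tested genes.

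**Figure D5:**
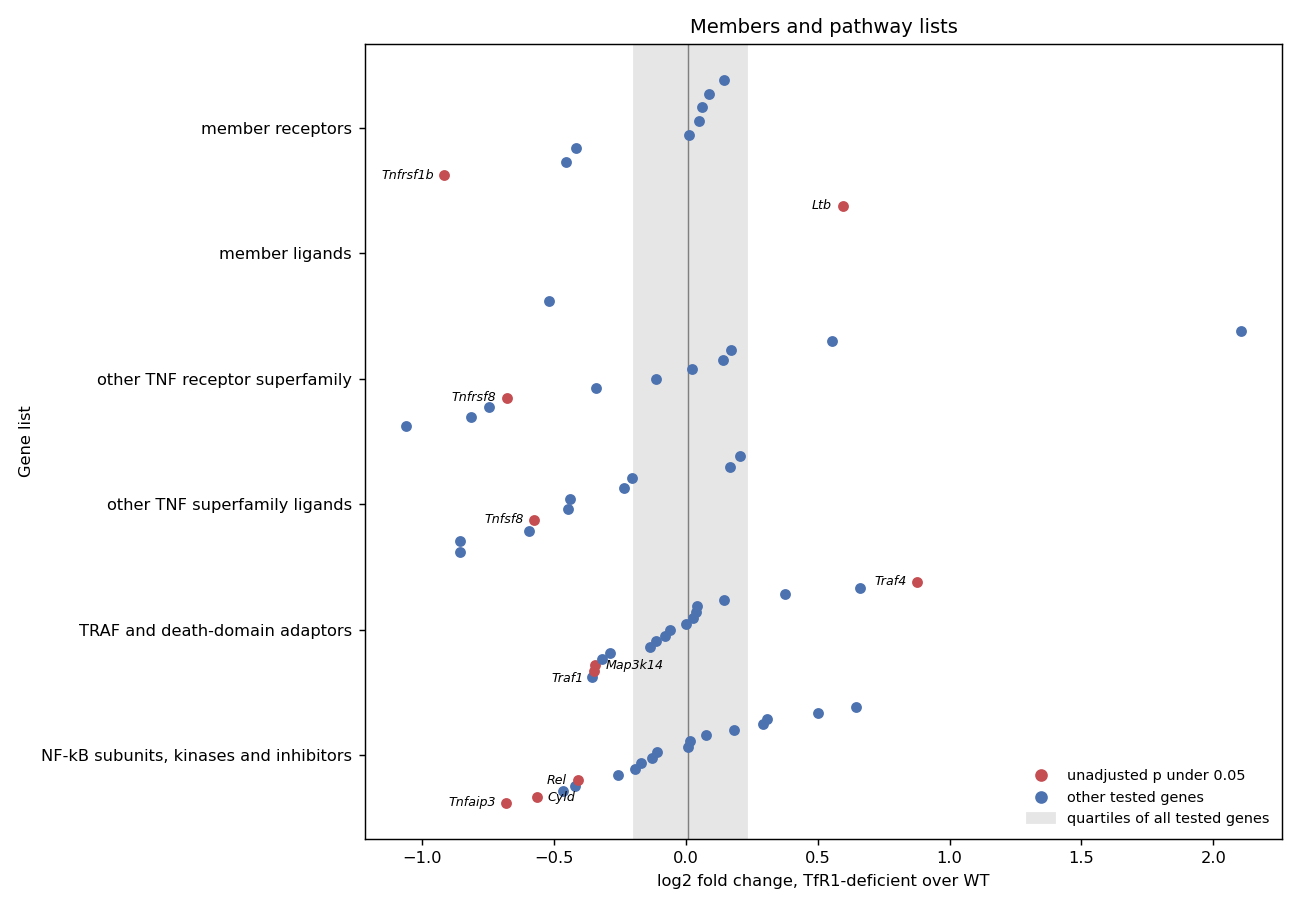
Log2 fold change (TfR1-deficient over WT) of every tested gene of the members and of the 4 pathway lists, 1 point per gene, with genes at an unadjusted p-value under 0.05 in red and named. The grey band spans the quartiles of all 12536 tested genes, -0.20 to 0.23. *Tnfrsf1b* is the lowest and *Ltb* the highest of the 10 members.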

How the data were processed

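Sorted Treg cell RNA gave 4 libraries, made with a NEBNext low-input kit. The authors deposited unnormalized whole-number counts of reads for each gene and library. The submitters' processing notes name Trim Galore 0.6.7, STAR 2.7.9a, featureCounts and mm10, while the paper's methods name mm9. Of the 47729 identifiers 14930 are not in the mm9 annotation GENCODE vM1, so mm10 coordinates (RefSeq, GRCm38.p6) are printed and vM1 was used for symbols and exon-union lengths. Strand and multi-mapping settings are not given in the sources used here.

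Counts passing filterByExpr (12536 genes) were TMM-scaled and tested with edgeR 4.0.16 (R 4.3.3, quasi-likelihood, genotype only, Benjamini-Hochberg over all genes, threshold 0.05). A looser rule, unadjusted p under 0.05 and a change of 0.5 or more on the log2 scale in either direction, is descriptive. Pair ratios use log2 CPM with a prior count of 2. Standard errors were taken as the log2 fold change over the root of the F statistic. Alternatives were DESeq2 1.42.0, other scaling, other filters (none, or at least 10 counts in every library), no minimum change, a replicate block and leaving out each library. The fit was tested on simulated counts of 12194 genes, of which 200 were set to differ between the genotypes. It recovered 96 of these 200 and also called 16 genes that were set to be equal. At a true log2 fold change of 1 it recovered 8 of 66 genes, at 2 it recovered 38 of 65, and at 3 it recovered 50 of 69. The ratios within pairs of libraries and the crossed block were chosen after seeing the data, and so were the 10 promoter motifs. The members and lists were chosen with earlier results of these data known. Named genes are the members, the lowest p-values (up to 3 per direction) without overlap in each list, and the nearest patterns. Others (*Lta*, *Traf2*, *Ltbr*, *Cd40* and further ligands) were named after their values were seen, as partners of a member. *Tnfsf12*, *Hbb-bs* and *Hbb-bt* matched no identifier.

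Replicates of a genotype differed beyond counting noise (chi-square per degree of freedom 31.2 for WT and 51.1 for TfR1-deficient), so each counted as 1 sample.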

Additional observations from a re-analysis of the deposited data

How the results depend on the processing

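With 2 libraries per genotype, the spread between replicates limits these comparisons more than depth does, since each member had at least 187 reads in every library. With 1 library left out, the lone library of its genotype was assumed to vary like the others.

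Members called at an adjusted p-value numbered 0 in the main setting, 1 (*Tnfrsf1b*) without a count filter, and 0 with DESeq2, other scaling, the stricter filter, the replicate block and each library left out. Over all genes, 0 higher and 0 lower became 6 and 33 with DESeq2, and 167 and 95 without a count filter, where 650 genes were higher at the unadjusted threshold. The cause was not tested. At the unadjusted threshold (200 higher, 311 lower), leaving out 1 library gave 151 to 268 higher and 140 to 372 lower genes, with 140 without WT replicate 1. Of the members, 0 to 1 were then higher and 1 to 2 lower. *Ltb* was not counted without TfR1-deficient replicate 1 or WT replicate 2, and *Cd40lg* (without TfR1-deficient replicate 2) or *Tnfrsf9* (without WT replicate 2) joined *Tnfrsf1b*, which was counted in each of these fits.

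The members' median, 0.03, lay between -0.10 (TfR1-deficient replicate 1 left out) and 0.11 (WT replicate 2 left out). The signs of *Tnfrsf4* (-0.31 to 0.48), *Tnfrsf18* (-0.13 to 0.21), *Tnfrsf25* (-0.063 to 0.27), *Cd27* (-0.082 to 0.13), *Fas* (-0.042 to 0.15) and *Cd40lg* (-1.10 to 0.023) turned with 1 library left out. Without TfR1-deficient replicate 1 the values were -0.31, -0.13, -0.033, -0.040 and -0.042 for the first 5 of these, and without WT replicate 1 they were -0.12, -0.084, -0.063 and -0.082 for the first 4 and 0.023 for *Cd40lg*. *Tnfrsf1b*, *Tnfrsf9*, *Tnfrsf1a* and *Ltb* kept their sign in every fit.

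Whether the replicate numbers pair libraries prepared together is not given in the sources used here. Deviations from the genotype means correlated at -0.61 over genes between same-numbered libraries, so the numbers did not bring libraries with like deviations together. Under the replicate block, 70 genes were higher and 141 lower at the unadjusted threshold, and 0 members were higher. Pairing the libraries crosswise, as the pairs with low and with high macrophage counts, was chosen after seeing the data, so its calls are a description and not a test. It gave 174 higher and 265 lower genes at the adjusted p-value, and 596 and 519 at the unadjusted threshold. Of the members, 2 (*Tnfrsf1b* and *Ltb*) were called at the adjusted p-value and 2 (*Tnfrsf1b* and *Cd40lg*) were lower at the unadjusted threshold.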
